A study of Mus musculus with 4 samples.

Results

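The insulin-like growth factor (IGF) genes examined were 8 of the 28692 genes in the deposited tables: the ligand *Igf1*, the receptor *Igf1r* and the binding proteins *Igfbp2*, *Igfbp3*, *Igfbp4*, *Igfbp5*, *Igfbp6* and *Igfbp7*. They were taken by name, and each symbol matched 1 gene. All 8 were found, and 7 passed the filter on low counts in each comparison of a single class. *Igfbp2* passed it only when all mesenchymal stromal cells (MSC) were pooled. Single cells came from the lamina propria, the connective tissue under the epithelium, of untreated female C57BL6/Nrj mice aged 8 to 10 weeks. The muscle coat had been removed, and 3 mice were pooled per experiment. Small intestine and colon gave 2 droplet libraries each. Cells had been sorted as live and integrin β1-positive, and negative for markers of hematopoietic, endothelial, epithelial and glial cells.

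IGF1 is a secreted growth factor that signals through the receptor tyrosine kinase encoded by *Igf1r*. IGF-binding proteins hold IGFs in the extracellular space, where they can limit or prolong access to the receptor, and proteases release the ligand by cutting them. IGFBP6 is known for its preference for IGF2, and IGFBP7 binds IGFs only weakly. Stromal cells are a known local source of IGF1 and of binding proteins in the gut.

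The 4 libraries held 14341443 to 52269372 counts of unique molecular identifiers (UMIs). In both intestines the replicate 1 library had fewer cells and more UMIs per cell than the replicate 2 library, and a Cell Ranger version of its own. Of 34983 barcodes, 24164 remained as single cells with at least 2000 UMIs, and 20372 of these fell into 5 classes gated on markers that include none of the 8 genes. PDGFRαhi fibroblasts (FB), which lie beneath the epithelium, numbered 101 and 572 in the small intestinal libraries (replicates 1 and 2) and 624 and 2755 in the colonic ones. CD81+ FB made up 455, 3806, 411 and 2969 cells in the same order. FB with at most 2 markers of each class list ("remaining FB") made up 455, 4498, 360 and 2314. A further 2930 cells fell into no class and count only in the pooled MSC. Smooth muscle cells (SMC) made up 44, 68, 209 and 583 cells, and pericytes 43, 9, 64 and 32. Pericytes therefore had no test with this gate. Of PDGFRαhi, CD81+ and remaining FB, 32.6%, 49.5% and 73.6% of cells lay at the gate's limit. For SMC and pericytes the shares were 23.9% and 34.5%. Remaining FB still carried markers of both other classes, with summed PDGFRαhi FB markers at 725 and 553 (small intestine) against 5242 and 2251 CPM (colon) and summed CD81+ FB markers at 1710 to 4341 CPM, so both borders were soft. Small intestine and colon replicate 2 shared 69 cell barcodes, and the other library pairs shared 0 to 8.

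All 8 genes are protein coding (mm10, GENCODE vM21). *Igfbp5* (ENSMUSG00000026185) lies at chr1:72857932-72874884 on the minus strand, 5457 bases from *Igfbp2* at chr1:72824503-72852474. *Igfbp3* (chr11:7206086-7213923) lies 3539 bases from *Igfbp1*, which had 0 UMIs in the 3 FB classes. *Igfbp6* (ENSMUSG00000023046) lies at chr15:102144362-102149511, *Igfbp4* at chr11:99041244-99054392, *Igfbp7* at chr5:77349240-77408041, *Igf1* at chr10:87858265-87937042 and *Igf1r* at chr7:67952827-68233668. The 250 bases before the RefSeq start (GRCm38.p6) are shown for *Igfbp5* (chr1:72874866-72875115, minus strand) and *Igfbp6* (chr15:102143936-102144185, plus strand), because these genes differed most between the intestines, in opposite directions. The *Igfbp6* window ends before the GENCODE start of that gene.

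Igfbp5: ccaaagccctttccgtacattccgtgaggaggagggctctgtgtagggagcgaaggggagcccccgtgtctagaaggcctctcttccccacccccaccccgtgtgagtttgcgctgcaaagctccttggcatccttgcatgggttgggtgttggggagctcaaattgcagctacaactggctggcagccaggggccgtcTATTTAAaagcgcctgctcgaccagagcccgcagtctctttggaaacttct
Igfbp6: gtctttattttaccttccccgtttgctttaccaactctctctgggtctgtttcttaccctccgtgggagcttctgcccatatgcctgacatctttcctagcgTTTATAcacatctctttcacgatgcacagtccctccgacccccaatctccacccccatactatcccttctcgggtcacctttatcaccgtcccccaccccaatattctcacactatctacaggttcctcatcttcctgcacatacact

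Capitals mark matches to the TATA box TATAAA, to TATTTAA or to the GC box GGGCGG, searched on both strands. The *Igfbp5* window held 1 TATTTAA, as did 4.18% of 32851 promoter windows. The *Igfbp6* window held 1 TATAAA, on the reverse strand, as did 12.4% of windows. GGGCGG was in neither, and in 32.7% of windows. These letters are a description and were not tied to the levels below.

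*Igfbp5* was the member with a called difference between the intestines, and it was found in PDGFRαhi FB. Its protein binds IGFs and the extracellular matrix. In these cells it stood at 813 and 1202 CPM (replicates 1 and 2 of small intestine) and at 73.2 and 87.1 CPM (those of colon), where CPM scales a gene's UMIs to a fixed total of UMIs for its class and library. Both small intestinal libraries were high, both colonic libraries were low, and the ranges were far apart. Colonic *Igfbp5* fell by 3.51 ± 0.37 (SE) on the log2 scale (edgeR quasi-likelihood test, adjusted p = 0.0283). Calls needed an adjusted p below 0.05 together with a log2 change past 1.5. Of the 7 members tested 1 was called, where 1.07% of all 11415 genes were. A change of *Igfbp5* between the intestines was known when the genes were chosen, so this call is no independent support. Within the replicate 1 libraries the difference was -3.46 and within the replicate 2 libraries -3.77 on the log2(CPM + 1) scale. Without small intestine replicate 1 or 2 the adjusted p was 0.0886 or 0.124, with a log2 change of -3.77 or -3.17, and the call was lost.

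The class dependence of *Igfbp5* was tested as a term of its own. Class-dependent changes of *Igfbp5* and *Igfbp6* in these data were known when the genes were chosen. The tests between the intestines and of the class dependence are therefore no independent support for either gene. In CD81+ FB it was at 424 and 591 (small intestine) against 327 and 321 CPM (colon). In remaining FB it was at 516 and 603 (small intestine) against 422 and 458 CPM (colon). Neither class passed the test (log2 change -0.76 ± 0.27, adjusted p = 0.498, and -0.34 ± 0.25, adjusted p = 0.855). The colon to small intestine difference was 2.75 ± 0.16 log2 units more negative in PDGFRαhi than in CD81+ FB (class by intestine term with library as a block, edgeR adjusted p = 2.29e-10). Against remaining FB it was 3.15 ± 0.14 log2 units more negative (edgeR adjusted p = 2.56e-14). With clusters in place of the gate, the value against CD81+ FB was -4.36 (adjusted p = 0.0825), and that call was lost. PDGFRαhi FB thus had the highest mean *Igfbp5* level of the 5 classes in small intestine and the lowest in colon. In small intestine the range overlapped that of pericytes, the next class, at 521 and 1076 CPM. The second value is from 9 cells, in which summed fibroblast markers were at 19369 and summed pericyte markers at 3973 CPM. The part of these fibroblast markers in it was not tested. In colon, SMC came next at 205 and 180 CPM, and their range was apart. This order is one of whole classes and not of their parts. Colonic CD81+ FB with an *Ackr4* but no *Pi16* UMI were lower than PDGFRαhi FB, at 52.9 and 27.8 CPM. Small intestinal CD81+ FB with neither UMI stood at 791 and 772 CPM, near the lower PDGFRαhi FB value of 813 CPM.

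The share of cells with an *Igfbp5* UMI, with each cell thinned to 2000 UMIs, was 33.7% and 34.3% in small intestinal PDGFRαhi FB. It was 6.41% and 7.73% in the colonic cells. Without thinning the 4 shares were 40.6%, 36.5%, 12.7% and 11.3%. No contaminating class gave a clean background in every library. Cells gated as plasma cells had a thinned share of 6.15% (19.4 CPM) in small intestine replicate 1, and 28.4% to 33.8% in the other 3 libraries. In colon the mean level of every member in this gate lay within the range of the 3 FB class means. For *Igfbp5* it was 330 CPM, against 80.2 to 440 CPM. Whether the cells of this gate were plasma cells was not tested. Endothelial cells had 7.82% in small intestine replicate 1 and 22.3% in colon replicate 1. The colonic PDGFRαhi share was thus near or below every one of these shares. The small intestinal share of 34.3% in replicate 2 was likewise near that of the plasma cell gate in its library, so only the difference in level is described.

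Summed pericyte markers moved with *Igfbp5* in PDGFRαhi FB, at 1174 and 814 CPM in small intestine against 218 and 190 CPM in colon. *Kcnj8* and *Abcc9* made up most of the small intestinal sum. *Kcnj8* was at 617 and 298 CPM there, against 572 and 0 CPM in the pericytes of these libraries. *Abcc9* was at 303 and 259 against 253 and 207 CPM, and *Cspg4* at 90.8 and 130 against 108 and 372 CPM. *Notch3* was at 0 in both small intestinal libraries, and *Rgs5* was at 149 and 119 CPM, against 5451 and 2069 CPM in these pericytes. *Higd1b*, *Ndufa4l2*, *Cox4i2*, *Mcam* and *Esam* were at 7.31 CPM or less, against 41.4 CPM or more in these pericytes. The pericyte marker sum was also lower in the colon in CD81+ FB (556 and 580 against 84.6 and 62.6 CPM) and in remaining FB (954 and 807 against 104 and 140 CPM). Summed CD81+ FB markers were also higher in small intestinal PDGFRαhi FB (2877 and 1308 against 699.5 and 339 CPM). The part of both marker sums in the result was not tested.

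**Figure D1:**
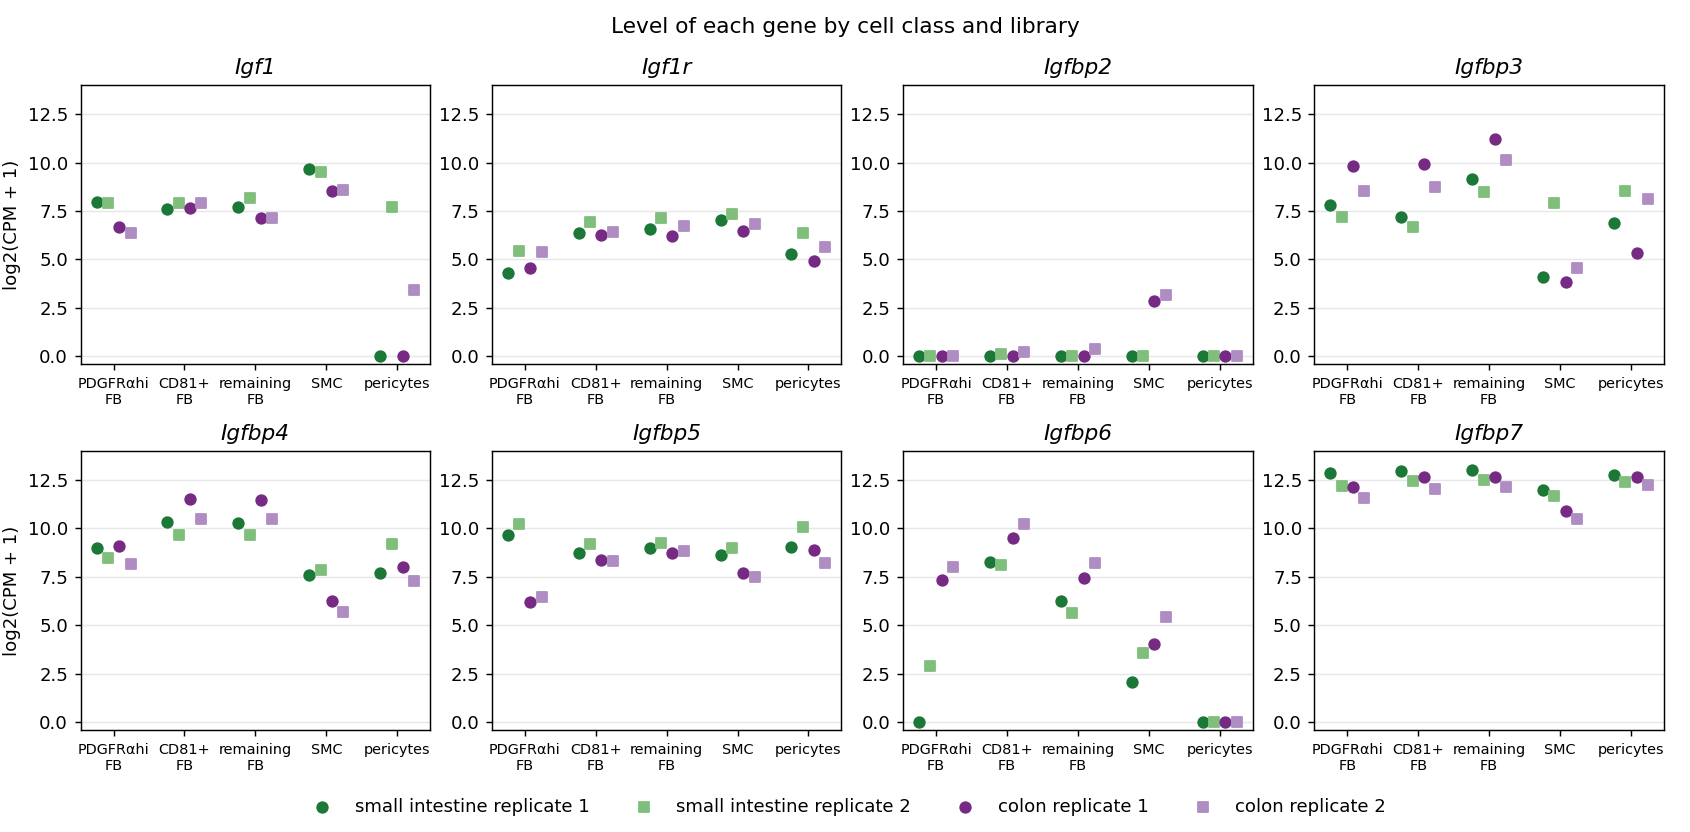
Level of each of the 8 genes, as log2(CPM + 1), in the 5 cell classes (x axis), with 1 point per library. *Igfbp5* in PDGFRαhi FB stands at 813 and 1202 (small intestine) against 73.2 and 87.1 CPM (colon), and *Igfbp6* shows the opposite order.

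*Igfbp6* showed the opposite pattern. In PDGFRαhi FB it had 0 and 10 UMIs (0 and 6.50 CPM) in small intestine and 1086 and 2925 UMIs (160 and 253 CPM) in colon. Summed over libraries, the colon to small intestine ratio was 54.6 (95% counting interval 29.6 to 114). Both colonic libraries were high and the ranges were apart, but the edgeR test across all genes gave an adjusted p of 0.0613 (log2 change 5.92 ± 0.90), so the gene was not called. It was called with DESeq2 (adjusted p = 0.0188), and by clusters in place of the gate (adjusted p = 0.0411). With doublets kept it was not called, and 6 of 10 alternative settings called it in all.

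In CD81+ FB *Igfbp6* was at 304 and 278 (small intestine) against 720 and 1190 CPM (colon). In remaining FB it was at 75.5 and 49.7 (small intestine) against 176 and 294 CPM (colon). Colonic libraries were the higher ones in both classes, without a call (log2 change 1.61 ± 0.37, adjusted p = 0.241, and 1.94 ± 0.40, adjusted p = 0.194). Of the 7 members tested 0 were called in either class, where 0.248% and 0.249% of all genes were. At an unadjusted p under 0.05, 3 members passed in each class, as did 9.26% and 9.31% of all genes, and DESeq2 called 2 in each, among 280 and 320 genes. Summed PDGFRαhi FB markers moved with *Igfbp6* here, at 725 and 732 (small intestine) against 3231 and 1488 CPM (colon) in CD81+ FB and at the values given above in remaining FB, and their part in the result was not tested. The intestinal difference was 4.22 ± 0.49 log2 units larger in PDGFRαhi than in CD81+ FB (edgeR adjusted p = 0.00107). It was 3.84 ± 0.54 log2 units larger than in remaining FB (edgeR adjusted p = 0.00631). With doublets kept, these became 2.79 (adjusted p = 0.404) and 2.48 (adjusted p = 0.439), and both calls were lost. With DESeq2 they were also lost (5.07, adjusted p = 0.0560, and 4.73, adjusted p = 0.125), and without colon replicate 1 the one against CD81+ FB was lost (4.21, adjusted p = 0.0590). The size of both terms rests on 10 UMIs in small intestine replicate 2. Without that library they were 11.80 and 11.58 (adjusted p = 5.01e-10 and 2.23e-08), fitted against 0 UMIs and so no measured size, and with a margin of 1 marker they were 2.56 and 2.03.

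Between the classes, *Igfbp6* was 2.22 ± 0.10 log2 units higher in CD81+ than in remaining FB (edgeR adjusted p = 2.66e-06). The thinned share of CD81+ FB with an *Igfbp6* UMI was 34.1% and 28.9% (small intestine) against 56.4% and 67.8% (colon). Pericytes had 0 UMIs in all 4 libraries. In endothelial cells the share was 0.340% in small intestine replicate 1 and 0.909% in colon replicate 1, below the CD81+ FB of these libraries. In cells gated as plasma cells it was 1.54% and 7.46% (small intestine) against 38.9% and 40.5% (colon). Of small intestinal PDGFRαhi FB, 0 of 101 cells in replicate 1 (exact 95% upper bound 3.59%) and 0.874% in replicate 2 had an *Igfbp6* UMI. In the colonic PDGFRαhi FB the shares were 16.7% and 23.0%, which is below that of the plasma cell gate in the same libraries. As given for *Igfbp5*, member levels in that gate lay within the range of the FB classes in colon, so it is no clean background. Only the difference in level is described.

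**Figure D2:**
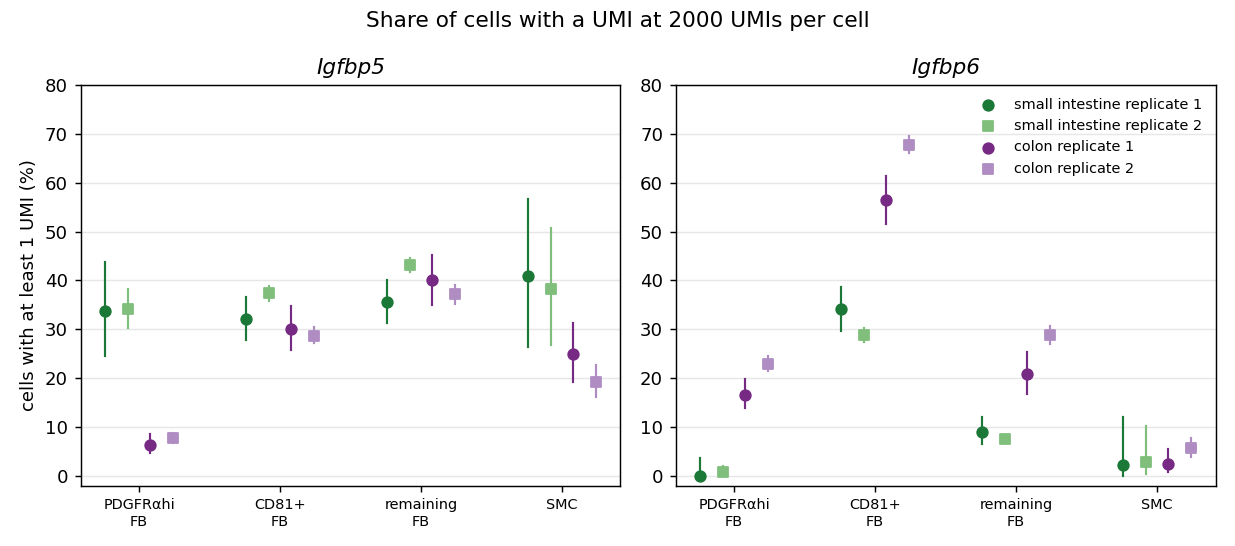
Share of cells with at least 1 UMI (y axis, percent) after thinning each cell to 2000 UMIs, by class and library, with exact 95% binomial intervals. A UMI of *Igfbp5* was seen in 33.7% and 34.3% of small intestinal PDGFRαhi FB and in 6.41% and 7.73% of the colonic ones, and one of *Igfbp6* in 34.1% and 28.9% of small intestinal and 56.4% and 67.8% of colonic CD81+ FB.

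*Igfbp3* encodes the main carrier of IGFs in serum. Its levels in the 3 FB classes were higher in both colonic libraries than in either small intestinal library. In PDGFRαhi FB it was at 222 and 143 (small intestine) against 911 and 370 CPM (colon). In CD81+ FB the values were 143 and 100 CPM against 956 and 419 CPM, and in remaining FB 566 and 359 CPM against 2384 and 1109 CPM. The log2 changes were 1.93 ± 0.49, 2.36 ± 0.47 and 1.91 ± 0.45, and none was called (edgeR adjusted p = 0.181, 0.189 and 0.260), with DESeq2 calling all 3. Summed PDGFRαhi FB markers were higher in colonic CD81+ and remaining FB too, as given for *Igfbp6*. Replicate 1 was above replicate 2 in each of these classes and in both intestines. Remaining FB had the highest level of the FB classes, above PDGFRαhi FB by 1.59 ± 0.09 and above CD81+ FB by 1.55 ± 0.09 log2 units (edgeR adjusted p = 3.75e-05 and 1.15e-05).

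*Igfbp4* was lower in PDGFRαhi FB than in the other FB classes. It stood at 500.03 and 356 CPM in small intestinal and at 545 and 287 CPM in colonic PDGFRαhi FB, which overlapped. In CD81+ FB it was at 1312 and 808 (small intestine) against 2984 and 1457 CPM (colon). Remaining FB held 1235 and 823 (small intestine) against 2875 and 1456 CPM (colon). The class difference was -2.10 ± 0.21 against CD81+ and -1.996 ± 0.218 against remaining FB (edgeR adjusted p = 0.000293 and 0.00146). The colon to small intestine difference was also lower in PDGFRαhi FB, by 0.87 ± 0.15 and 0.97 ± 0.13 log2 units (edgeR adjusted p = 0.000356 and 5.24e-06). The first call was lost with a stricter CD81+ gate (-0.35, adjusted p = 0.324).

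*Igfbp7*, which encodes a secreted protein of the matrix, was found in 91.4% to 100% of cells of the 5 classes at 2000 UMIs. In PDGFRαhi FB it was at 7432 and 4595 (small intestine) against 4431 and 3039 CPM (colon). Replicate 1 was above replicate 2 in each class and intestine, and no class gave a called difference between the intestines. Endothelial cells stood at 10565 CPM in small intestine replicate 1 and at 12184 CPM in colon replicate 1.

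*Igf1* was highest in SMC, at 803 and 725 (small intestine) against 372 and 376 CPM (colon). In PDGFRαhi FB it was at 248 and 237 (small intestine) against 102 and 80.6 CPM (colon), with the ranges apart (log2 change -1.28 ± 0.25, edgeR adjusted p = 0.101, not called). In CD81+ FB it was at 195 and 239 (small intestine) against 199 and 243 CPM (colon). Those ranges overlapped. The intestinal difference in PDGFRαhi FB less that in CD81+ FB was -1.205 ± 0.199 log2 units (edgeR adjusted p = 0.000529). In remaining FB, at 205 and 289 (small intestine) against 138 and 142 CPM (colon), the intestinal difference was 0.74 ± 0.11 log2 units below that of CD81+ FB (edgeR adjusted p = 0.000853). In colon the order of the classes was SMC, CD81+, remaining and PDGFRαhi FB, each apart from the next, with pericytes lowest at 0 and 9.89 CPM. In small intestine the 3 FB classes overlapped.

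*Igf1r* was low in PDGFRαhi FB, at 18.8 and 42.2 (small intestine) against 22.9 and 40.4 CPM (colon). CD81+ FB had 82.6 and 123 CPM, and 77.0 and 83.5 CPM. Its level in PDGFRαhi FB was below that in CD81+ FB by 1.78 ± 0.20 and below remaining FB by 1.85 ± 0.15 log2 units (edgeR adjusted p = 0.00109 and 0.000232). No class differed between intestines by a call. Among the 5 classes *Igfbp2* was near 0 except in colonic SMC, with 11 and 15 UMIs (6.20 and 7.93 CPM). It had 0 UMIs in small intestinal SMC, which makes the colonic level at least 1.16-fold higher against a floor of 3 counts over the group.

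In SMC 0 of 7 members tested were called between the intestines (0.357% of all genes were), 6 passed an unadjusted p under 0.05, where 8.84% of all genes did, and DESeq2 called 1. The lowest adjusted p was for *Igfbp4* (192 and 229 CPM in small intestine, 76.1 and 50.8 CPM in colon, edgeR adjusted p = 0.150). *Igfbp3* in small intestinal SMC was at 16.3 CPM in replicate 1 and at 240 CPM in replicate 2. Fibroblast markers were at 6671 and 13878 CPM in these 2 libraries, and their part in this was not tested. Over all MSC together 0 of 8 members and 0 of 13966 genes (0.00%) were called by edgeR, 1532 genes passed an unadjusted p under 0.05, and DESeq2 called 522.

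**Figure D3:**
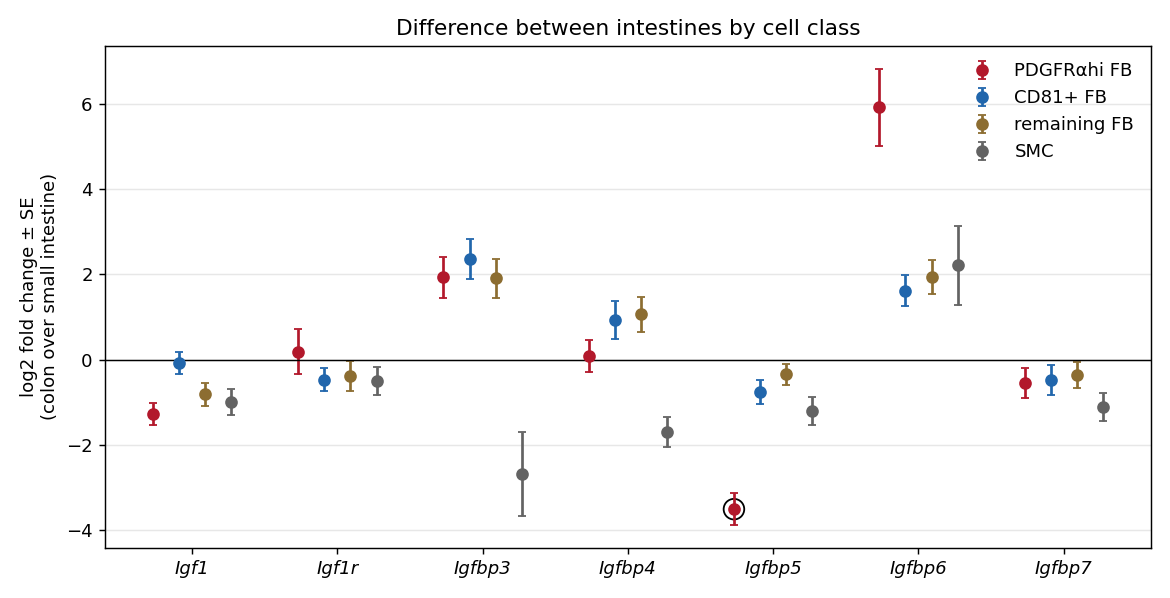
Log2 fold change of colon over small intestine, with its standard error, for 7 genes in 4 classes. The circle marks the called value, *Igfbp5* in PDGFRαhi FB at -3.51, whereas *Igfbp6* in the same cells stands at 5.92.

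Across the terms for a difference between classes, 4 of 7 members tested were called for PDGFRαhi against CD81+ FB (10.5% of all genes were). For PDGFRαhi against remaining FB 3 were called (8.55% of genes), and for CD81+ against remaining FB also 3 (3.86% of genes). The last 3 were *Igf1*, *Igfbp3* (0.43 ± 0.10, edgeR adjusted p = 0.0141) and *Igfbp5* (-0.41 ± 0.10, edgeR adjusted p = 0.0327). With clusters of each library the *Igfbp5* value was 0.79 (adjusted p = 0.799), so its direction turned. Neither the *Igfbp5* nor the *Igfbp3* call held with DESeq2 (adjusted p = 0.313 and 0.0648). *Igfbp5* was among the calls of every term, and *Igfbp6* among those of both terms with PDGFRαhi FB. Their class-dependent changes were known when the genes were chosen, so these counts are no independent support. For the level of a class, called at an adjusted p under 0.05 and a log2 difference beyond 1, the counts were 2 (14.7% of genes), 3 (10.0%) and 2 (4.67%). The classes were gated on other genes of the same cells.

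Single marker genes divided the FB classes further, given here as a description. In colonic PDGFRαhi FB, cells with *Cd9* but no *Thbd* UMI had *Igfbp6* at 472 and 487 CPM, and those with *Thbd* but no *Cd9* at 35.6 and 22.8 CPM. *Igf1* ran the other way, at 49.7 and 50.6 CPM in the *Cd9* cells and at 123 and 119 CPM in the *Thbd* cells. Among CD81+ FB, those with a *Pi16* UMI had *Igfbp6* at 639 and 859 (small intestine) against 1472 and 1949 CPM (colon). Cells with *Ackr4* but no *Pi16* had *Igfbp5* at 60.0 and 119 (small intestine) against 52.9 and 27.8 CPM (colon). The CD81+ FB with neither held more of it, at 791 and 772 CPM, and 416 and 425 CPM. They were 219 of 455 and 2535 of 3806 CD81+ FB in small intestine, and 276 of 411 and 1676 of 2969 in colon. *Igfbp3* was lowest in the *Pi16* and *Ackr4* cells of small intestine, at 8.68 to 21.7 CPM. Among remaining FB of small intestine, *Fgfr2* cells without *Cd34* had more *Igfbp3* (2422 and 715 CPM) than *Cd34* cells without *Fgfr2* (297 and 185 CPM).

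**Figure D4:**
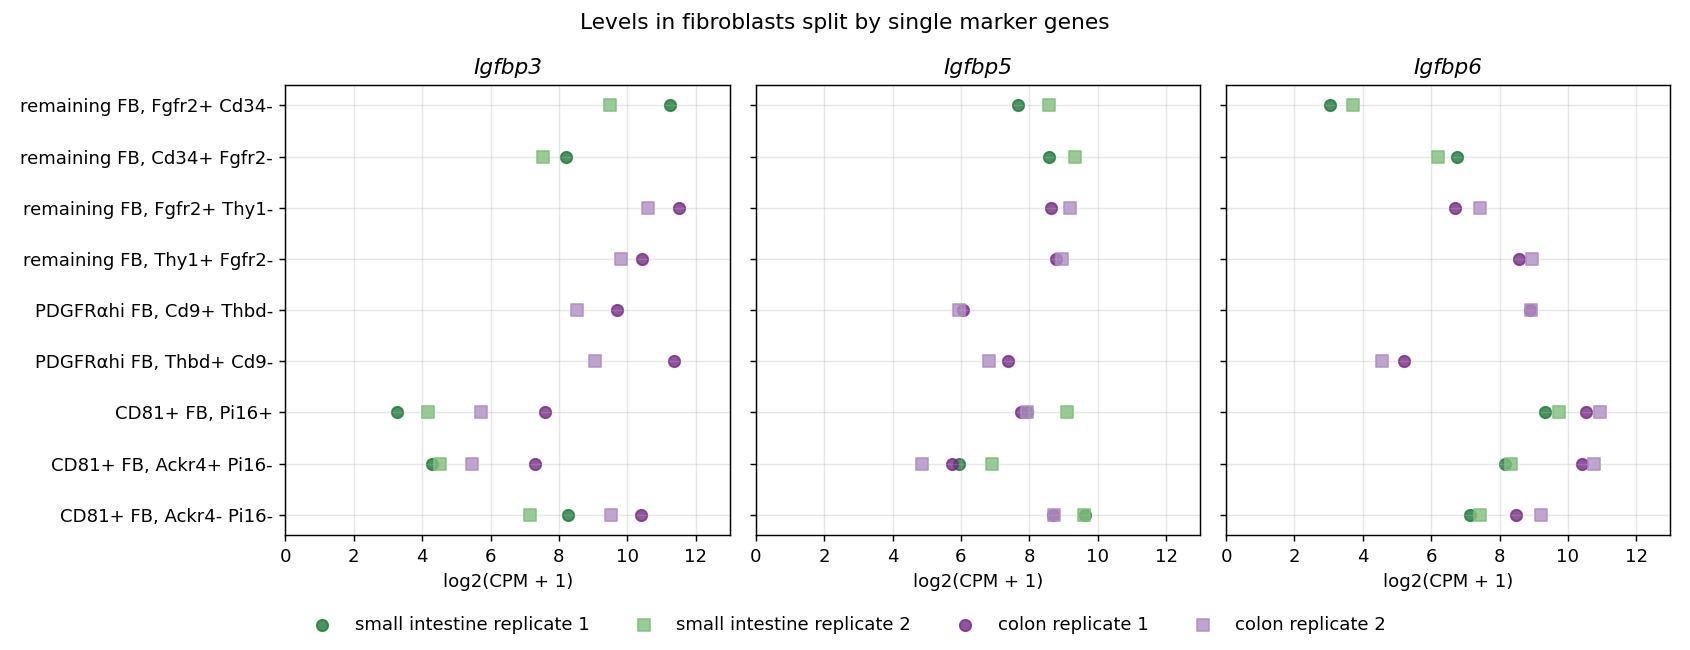
Level of *Igfbp3*, *Igfbp5* and *Igfbp6*, as log2(CPM + 1), in fibroblasts divided by single marker genes (rows), 1 point per library with at least 20 cells. *Igfbp6* stands at 472 and 487 CPM in colonic PDGFRαhi FB with *Cd9* and at 35.6 and 22.8 CPM in those with *Thbd*.

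The other 29 genes of the pathway comprised ligands and receptors, other binding proteins, proteases with their inhibitors, and signalling genes. Between the intestines 0 of 21 tested in PDGFRαhi FB were called, 7 passed an unadjusted p under 0.05 (11.9% of all genes did), and the median log2 change was -0.03 beside 0.02 for all genes. In CD81+ FB 0 of 22 were called (7 at an unadjusted p under 0.05 beside 9.26% of all genes, median -0.37 beside 0.00), and in remaining FB 0 of 20 (6 beside 9.31% of all genes, median -0.18 beside 0.01).

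*Igf2*, the second IGF ligand and an imprinted gene, had 0 UMIs in small intestinal PDGFRαhi FB and 8.52 and 10.4 CPM in colon, which is at least 8.07-fold higher against a floor of 3 counts over the group. In CD81+ FB it was at 1.01 and 1.85 (small intestine) against 2.42 and 3.80 CPM (colon). For PDGFRαhi against CD81+ FB, 6 of 22 pathway genes had a called difference of the intestinal effect (10.5% of all genes did), 5 with a higher value in PDGFRαhi FB. Among these were *Igf2*, *Kazald1* (2.68), *Stc1* (4.24) and *Foxo1* (0.92), and *Pik3r1*, a regulatory subunit of PI3-kinase, was lower (-0.57). Against remaining FB, *Foxo1* (0.95) and *Pik3r1* (-0.80) were called of 21 (8.55% of all genes), and CD81+ against remaining FB gave *Kazald1* (-1.94) of 22 (3.86% of all genes). *Kazald1*, which encodes a protein related to the binding proteins, was at 4.18 and 5.85 CPM in small intestinal and at 36.7 and 73.7 CPM in colonic PDGFRαhi FB. *Stc1*, an inhibitor of the protease PAPP-A, was at 1.04 and 5.85 CPM, and at 9.40 and 42.5 CPM. It had 10 UMIs in small intestinal PDGFRαhi FB, and 6 and 3 in CD81+ FB (small intestine and colon). Its value of 4.24 therefore rests on few counts.

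Class levels gave 6 calls of 22 for PDGFRαhi against CD81+ FB (14.7% of all genes), 4 of 21 against remaining FB (10.0%), and 2 of 22 for CD81+ against remaining FB (4.67%). *Pappa*, whose product cuts IGFBP4, was at 121 and 57.8 CPM in small intestinal and at 101 and 118 CPM in colonic PDGFRαhi FB. In CD81+ FB it was at 19.4 and 14.7 CPM, and at 17.8 and 9.62 CPM (log2 difference 2.46 ± 0.33, edgeR adjusted p = 0.00537). *Htra3*, a serine protease gene, was lower in PDGFRαhi than in CD81+ FB by 2.15 ± 0.18 log2 units (edgeR adjusted p = 0.000108). *Stc2*, a further inhibitor of PAPP-A, was lower by 2.001 ± 0.146 (edgeR adjusted p = 6.11e-05). *Foxo1*, a transcription factor restrained by AKT, was lower by 1.52 ± 0.21 and *Stc1* higher by 5.67 ± 0.90 (edgeR adjusted p = 0.00228 and 0.00823). In CD81+ FB *Stc1* had only 6 and 3 UMIs (small intestine and colon, summed over libraries), so the size of its difference is not well measured. *Esm1* was also called lower, with 0 and 1 UMIs in PDGFRαhi FB (small intestine and colon, summed over libraries) and 4 and 118 in CD81+ FB. *Htra1*, a further serine protease gene, was at 335 and 284 CPM (small intestine) against 1082 and 1139 CPM (colon) in PDGFRαhi FB, with a log2 change of 1.99 ± 0.28 that was not called (edgeR adjusted p = 0.0530). *Igf2r*, which encodes the receptor that clears IGF2, was at 28.9 to 56.5 CPM in PDGFRαhi FB.

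Likeness of pattern was read as Pearson r of log2(CPM + 1) over 19 profiles of class and library, among 3099 other genes outside the marker lists. The profiles share libraries and depth, and the values are a description. *Igfbp5* was most like *Ccl11* (0.79), *Lama2* (0.71) and *B2m* (0.68). *Igfbp6* was most like *S100a10* (0.94), *Rpl32* (0.93) and *Rpl19* (0.92), and *Igfbp3* like *Fscn1* (0.89), *Lpl* (0.86) and *Emp1* (0.84). *Igfbp4* was most like *Lysmd2* (0.94), *Ftl1* (0.93) and *Zfp36l2* (0.89), and *Igf1* like *Ndufa4* (0.93), *Tmem160* (0.92) and *Sh3d19* (0.91).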

How the data were processed

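The authors profiled sorted MSC by droplet sequencing. The deposited tables hold UMI counts, not normalised, which the authors made on mm10 with Cell Ranger 3.0.2 (replicate 1) and 3.1.0 (replicate 2). Whether a 3′ or 5′ kit was used for a library is not given in the sources used here. Barcodes needed 500 genes, 1000 UMIs and at most 10% mitochondrial UMIs. The automatic scrublet threshold marked 1 of 15263 cells in a library, so the highest scores were removed at 0.8% per 1000 cells, a choice made after seeing this. Cells were thinned to 2000 UMIs and gated on marker lists (at least 3 markers, a margin of 2). UMIs were summed per library and class and tested with edgeR 4.0.16 (quasi-likelihood, TMM, filterByExpr, R 4.3.3), with Benjamini-Hochberg adjustment over all genes. The steps were tested on simulated data. DESeq2 1.42.0, other gates, clusters (scanpy 1.11.5) and left-out libraries were alternatives. All 8 genes are named, with a part of the pathway genes that were called or highest of their role. A result of the pathway list is not reported here. Members and lists were chosen with earlier results of these data known. Each intestine had 2 separate experiments with 3 pooled mice each. The p-values between the intestines thus measure the spread between 2 pools of animals. Depth and Cell Ranger version go with the replicate number and are part of that spread. The p-values of terms with library as a block measure the spread of class differences between libraries. Intervals cover counting error only.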

Additional observations from a re-analysis of the deposited data

Results flagged for a closer look

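A difference between intestines that itself differed between 2 cell classes, by the class by intestine term (edgeR, adjusted p below 0.05), drew attention to 10 values. For PDGFRαhi against CD81+ FB these were *Igfbp5* (-2.75), *Igf1* (-1.205), *Igfbp4* (-0.87) and *Igfbp6* (4.22). For PDGFRαhi against remaining FB they were *Igfbp5* (-3.15), *Igfbp4* (-0.97) and *Igfbp6* (3.84). For CD81+ against remaining FB they were *Igfbp5* (-0.41), *Igf1* (0.74) and *Igfbp3* (0.43). All are log2 differences of the colon to small intestine change, over 2 libraries per intestine. Class-dependent changes of *Igfbp5* and *Igfbp6* were known when the genes were chosen, so their values here are no independent support.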

How the results depend on the processing

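Members called between the intestines rose from 1 to 3 with DESeq2, 2 without the filter, 2 with a margin of 1 marker, 2 with clusters and 3 with the replicate block in PDGFRαhi FB, and ranged from 0 to 3 when 1 library was left out. From 0, the counts became 2, 1 and 2 in CD81+ FB (DESeq2, no filter, block), 2, 1 and 1 in remaining FB, with 0 to 1 for left-out libraries (1 without colon replicate 2), 1, 1 and 1 in SMC (DESeq2, clusters, block), with 0 to 1 (1 without small intestine replicate 1), and 1 and 2 in all MSC (DESeq2, block). With the block the calls were *Igfbp3*, *Igfbp5* and *Igfbp6* in PDGFRαhi FB, *Igfbp3* and *Igfbp6* in CD81+ FB and *Igfbp3* in remaining FB. In pericytes 0 of 5 members were called with a margin of 1 marker, as were 0 of all 3888 genes tested. For the difference between CD81+ and remaining FB, 3 became 1 with DESeq2 and 1 to 4 (1 without small intestine replicate 2). The cause was not tested. The replicate numbers are shared by the intestines, but no label says that they mark an experiment. The replicate 1 minus 2 differences of the intestines correlated at 0.838 in PDGFRαhi, 0.820 in CD81+ and 0.818 in remaining FB and 0.635 in SMC, where the Cell Ranger version and depth go with the number.

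Signs turned as follows (log2). With a margin of 1 marker *Igf1r* in PDGFRαhi FB was -0.0064, and the *Igfbp3* difference between PDGFRαhi and remaining FB was 0.18 (0.026 without the filter). With clusters, colon over small intestine was -0.98 for *Igfbp4* in PDGFRαhi and 0.54 for *Igf1* in CD81+ FB, the difference terms were 0.088 (*Igfbp7*, PDGFRαhi and CD81+), 0.79 (*Igfbp5*) and 0.16 (*Igfbp6*, both CD81+ and remaining), and class levels 0.51 (*Igfbp5*) and 3.02 (*Igfbp3*) for PDGFRαhi against CD81+ and -0.15 (*Igfbp7*) and -0.16 (*Igfbp4*) for CD81+ against remaining FB. With at least 5 CD81+ markers, an alternative chosen after seeing the data, the values were 0.19 (*Igfbp5*) and 0.29 (*Igf1*) in CD81+ FB, 0.047 and 0.57 for the *Igfbp7* and *Igfbp5* differences, and 1.99 and -0.058 for the *Igfbp3* and *Igfbp7* levels. Leaving out 1 library gave -0.37 to 0.94 (*Igf1r*) and -0.36 to 0.43 (*Igfbp4*) in PDGFRαhi FB, -0.29 to 0.10 (*Igf1*, CD81+ FB), -3.66 to 0.18 (*Igfbp3*, SMC, turned without small intestine replicate 2), -0.091 to 0.088 (*Igfbp3* difference, PDGFRαhi and remaining), -0.25 to 0.16 (*Igf1r* difference, CD81+ and remaining), -0.13 to 0.057 (*Igfbp3* level) and -0.0045 to 0.043 (*Igfbp7* level).

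Over all genes, calls between the intestines with edgeR, DESeq2, no filter, clusters and the block were 122, 445, 579, 200 and 799 in PDGFRαhi FB, 30, 280, 263, 86 and 454 in CD81+ FB, 30, 320, 290, 45 and 531 in remaining FB, and 32, 142, 166, 251 and 362 in SMC (99 with a margin of 1). For all MSC they were 0, 522, 152 and 722, without clusters. Calls were 52 with the stricter gate in CD81+ FB and 46 with doublets kept in remaining FB. DESeq2 gave 673, 467 and 163 calls for the 3 difference terms (1307, 1061 and 483 with edgeR), clusters gave 1007 for the last, and 724 were called there without the filter. For the CD81+ to remaining level, 584 became 891 with clusters and 884 with the stricter gate. Left-out libraries gave 0 to 473, 0 to 113, 5 to 139, 55 to 148 and 0 to 84 calls between the intestines in PDGFRαhi, CD81+ and remaining FB, SMC and all MSC, and 623 to 1166, 623 to 1040 and 255 to 807 for the difference terms, and 385 to 540 for the CD81+ to remaining level. Of 24 mean shares over all libraries, 15 moved without thinning by at least the standard deviation of the thinned library shares.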
